A study of Rattus norvegicus with 35 samples.

Results

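Bcl6 was among the most variable transcripts in these rat livers, and the livers were compared here by how much of it they carried. The 35 livers were ranked by the deviation of their Bcl6 signal from the mean of their own dose group. The 10 livers with the highest deviation, called Bcl6-high, were set against the 10 with the lowest, called Bcl6-low, out of 35, and the other 15 are called middle livers. The classes were therefore chosen by measured Bcl6 values, so the Bcl6 values themselves are a description and carry no test. All other probe sets were compared between the classes.

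Male rats of the Harlan Sprague Dawley stock, aged 7 weeks when dosing began, received the brominated flame retardant 1,2-bis(tribromophenoxy)ethane (BTBPE) in corn oil by gavage at 1 of 5 doses, which were 0.07, 0.69, 6.88, 68 and 680 mg/kg, or corn oil alone (vehicle), at 5 ml/kg body weight on 5 consecutive days. Necropsy followed 1 day after the last dose, and RNA of the left liver lobe was hybridised to single-colour Affymetrix 3 prime arrays. There were 5 arrays at 68 mg/kg and 6 in each other group. No animal carried an engineered allele or a hormone treatment per the labels, and no hormone level is given in them. The labels number the samples of a group as replications, so the p-values measure the spread between these samples. The number of arrays limits the precision.

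Bcl6 is a zinc finger repressor that binds DNA at letters much like those bound by STAT5. In the livers of male rats growth hormone arrives in pulses. Each pulse acts through the growth hormone receptor and the kinase JAK2 to activate STAT5b, which turns on feedback inhibitors such as Socs2 and Cish and the transcription factor gene Onecut1. In rodent liver growth hormone lowers Bcl6 mRNA, and in mouse liver the Bcl6 protein occupies many sites that STAT5 also uses. The hormone also keeps up the hepatic output of Igf1 and the sex-biased cytochromes of the Cyp2c family.

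The Bcl6 signal spanned 4.85 log2 units over the 35 arrays, between 5.35 and 10.20. Its standard deviation within dose groups was 1.64, against a median of 0.144 over all probe sets, and ranked 5 of 31042. In Bcl6-high livers the log2 signal was lowest at 8.64, median 9.79 and highest at 10.20. In Bcl6-low livers it was lowest at 5.35, median 5.87 and highest at 7.32. The middle livers ran between 5.96 and 9.90, so they overlapped both classes on the plain scale, because the dose group means differed. As deviations from the dose mean, Bcl6-high livers lay between 1.03 and 3.02 and Bcl6-low livers between -3.25 and -1.29. The last liver inside the high class had a deviation of 1.03 and the first outside it 0.91, while the last inside the low class had -1.29 and the first outside it -1.28. The boundaries therefore fall within a continuous range, not in a gap.

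Every dose group held livers of both classes. Of the vehicle livers 3 were Bcl6-high and 2 Bcl6-low, and 1 was in the middle. At 0.07 mg/kg the counts were 1 Bcl6-high, 1 Bcl6-low and 4 middle, and at 0.69 mg/kg 2, 2 and 2 in the same order. At 6.88 mg/kg they were 1, 1 and 4, at 68 mg/kg 2, 2 and 1, and at 680 mg/kg 1, 2 and 3. Mean Bcl6 was 8.07 in vehicle livers, 9.07 at 0.07, 7.73 at 0.69, 7.24 at 6.88, 8.61 at 68 and 6.94 at 680 mg/kg, with standard deviations between 1.16 and 1.90. The spread within each group was thus of the same order as the differences between groups.

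**Figure D1:**
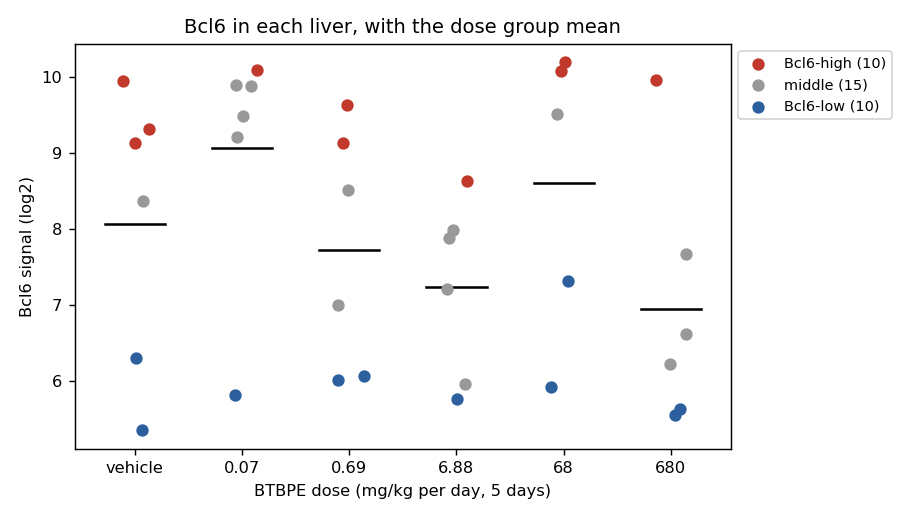
Bcl6 signal (log2, vertical axis) of each of the 35 livers by dose (mg/kg, horizontal axis), with a line at each dose group mean. Points are coloured by class, and the 10 Bcl6-high livers lie between 8.64 and 10.20 while the 10 Bcl6-low livers lie between 5.35 and 7.32.

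Against this background 167 of 31041 probe sets differed between the classes at an adjusted p under the threshold of 0.05 in limma's moderated test, which is 0.538% of those tested. In Bcl6-high livers 60 were higher (0.193%) and 107 lower (0.345%). By each gene's brightest probe set with 1 gene symbol, the transcripts lower in Bcl6-high livers were led by Onecut1, Bhlhe40, Socs2 and Sgk1. Those higher were led by Cyp7a1, the rate-limiting enzyme of bile acid synthesis, with Abcb9 and Rin2. With 1 probe set per gene, 109 of 14216 genes were called (0.767%), 39 higher and 70 lower. Most shifts were small: 3 probe sets were higher by 2-fold or more and 9 lower by as much. The deviations of the 2 classes did not overlap at all for 46 probe sets (0.148%), of which 43 were called.

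A 3 prime to 5 prime signal difference of the Actb control probe sets, which reflects RNA quality, averaged 1.16 ± 0.10 log2 in Bcl6-high livers and 1.08 ± 0.04 in Bcl6-low livers (SD, n = 10 each), with 1.20 ± 0.06 in the 15 middle livers. With this measure as a covariate the fit called 27 probe sets higher and 55 lower, and 77 of the 167 calls were kept, without a change of sign in any of the 167. Its part in the difference was not tested. Array medians lay between 4.71 and 4.79 and pairs of arrays correlated between 0.9905 and 0.9964.

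**Figure D2:**
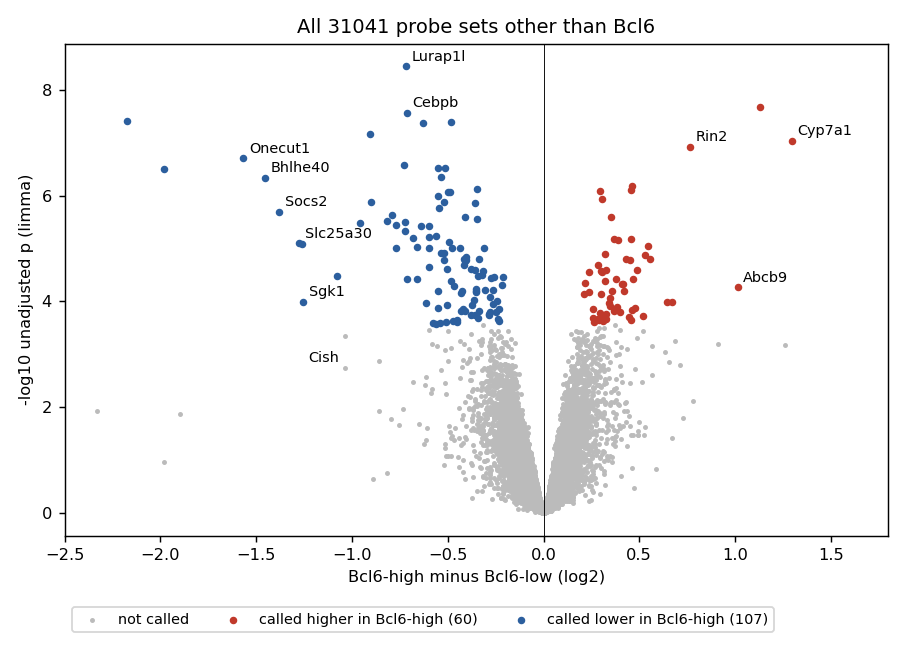
Difference between Bcl6-high and Bcl6-low livers (log2, horizontal axis) against -log10 of limma's unadjusted p (vertical axis) for the 31041 probe sets other than Bcl6. Red points were called higher (60) and blue points lower (107) in Bcl6-high livers, with Onecut1 (labelled at its second probe set, -1.57) far to the left and Cyp7a1 far to the right.

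The promoters below are shown because the letters TTCNNNGAA, to which STAT proteins bind, can be read in them, and they were picked for holding a match. These letters read the same on both strands. Bcl6-type letters TTCCTNGAA, searched on both strands, form a subset of them and so overlap with them. The 3 sequences are the 250 bases before the gene start, from RefSeq on build GRCr8, and capitals mark each TTCNNNGAA match. Cish is a direct STAT5 target and feedback inhibitor, Klf9 was called lower and Abcb9 was called higher in Bcl6-high livers.
Cish, chr8:116850719-116850968, plus strand: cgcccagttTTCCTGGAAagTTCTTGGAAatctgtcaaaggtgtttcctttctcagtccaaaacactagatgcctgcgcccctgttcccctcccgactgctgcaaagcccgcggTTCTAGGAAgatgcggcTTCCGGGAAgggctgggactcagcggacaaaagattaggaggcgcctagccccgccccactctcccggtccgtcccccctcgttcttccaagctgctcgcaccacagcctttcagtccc
Klf9, chr1:230126396-230126645, plus strand: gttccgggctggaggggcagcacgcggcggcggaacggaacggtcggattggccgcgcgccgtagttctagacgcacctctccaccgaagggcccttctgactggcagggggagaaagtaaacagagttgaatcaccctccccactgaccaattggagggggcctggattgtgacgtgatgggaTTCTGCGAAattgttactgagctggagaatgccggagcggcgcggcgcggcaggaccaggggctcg
Abcb9, chr12:38159902-38160151, plus strand: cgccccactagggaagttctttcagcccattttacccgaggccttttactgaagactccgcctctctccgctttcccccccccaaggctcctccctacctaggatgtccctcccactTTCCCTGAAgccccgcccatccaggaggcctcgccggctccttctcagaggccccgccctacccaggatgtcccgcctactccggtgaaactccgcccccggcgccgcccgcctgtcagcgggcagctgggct
Cish held 4 matches, beginning 241, 230, 136 and 119 bases before the gene start. Klf9 held 1 match, 66 bases before it, and Abcb9 held 1, 133 bases before it. Of the 4 in Cish 2 read TTCCTNGAA on 1 strand or the other, so they are of the Bcl6 type too. The Bhlhe40 and Igf1 promoters were read as well and held 0 matches.

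Over windows of 300 bases, which add 50 bases after the gene start, 8.87% of the 33469 promoters in the table held TTCNNNGAA and 1.71% held TTCCTNGAA. Among genes with a probe set the shares were 6.99% and 1.31% of 11699. Of the genes called lower in Bcl6-high livers, 4 of 54 with a promoter entry held TTCNNNGAA (7.41%), namely Klf9, Elf1, Vgll4 and Zfp455l1. Of the genes called higher 1 of 33 did (3.03%), which was Abcb9. These shares are to be read against the 6.99% of genes with a probe set. Among called genes 0 held TTCCTNGAA in the window. The Bcl6 promoter was read only over the 250 bases before the gene start, and it held neither there. Socs2, Onecut1 and Cyp7a1 have no entry in the table.

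The clearest members of the growth hormone axis were Onecut1 and Socs2, both lower where Bcl6 was high. Onecut1 encodes the liver transcription factor HNF6. Its deviation from the dose mean was lowest at -2.37, median -0.71 and highest at -0.20 log2 in Bcl6-high livers, against 0.19, 0.88 and 1.74 in Bcl6-low livers. All 10 Bcl6-high livers lay below their dose mean, all 10 Bcl6-low livers above it, and the classes did not overlap. The fitted difference was -1.98 ± 0.31 log2 (SE), so that Bcl6-high livers had 0.253 times the signal of Bcl6-low livers (95% interval 0.163 to 0.392, limma adjusted p = 7.0e-04). A second Onecut1 probe set, dimmer at a mean of 5.57, gave -1.57 ± 0.24 (adjusted p = 6.1e-04).

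Socs2, a feedback inhibitor of growth hormone receptor signalling, had deviations of -1.64, -0.33 and 0.04 log2 (lowest, median and highest) in Bcl6-high livers and 0.21, 0.78 and 1.55 in Bcl6-low livers. Here too the classes were apart, with 1 Bcl6-high liver just above its dose mean. The difference was -1.38 ± 0.24 log2, or 0.385 times (interval 0.274 to 0.539, limma adjusted p = 0.00216).

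Cish, another STAT5-driven feedback inhibitor and the gene with 4 STAT-type matches above, leaned the same way without passing the test. Its deviations were -1.22, -0.47 and 0.08 in Bcl6-high livers and -0.13, 0.25 and 1.81 in Bcl6-low livers. The low class was drawn out by a few livers with high Cish, and the classes overlapped. The difference was -1.04 ± 0.31 log2 (limma adjusted p = 0.151) on the brighter probe set and -1.03 ± 0.26 (adjusted p = 0.0726) on the other. Both probe sets were dim, with means of 4.89 and 4.76 log2, close to the array medians, where RMA compresses differences. With Bcl6 as a continuous measure over all 35 arrays the brighter one passed (slope -0.30 log2 per log2 unit of Bcl6, adjusted p = 0.0209). It also passed with classes of 12 livers (adjusted p = 0.0439), in the fit of deviations without dose terms (adjusted p = 0.0240) and with classes by plain Bcl6 level (adjusted p = 0.0422). The fit of deviations counts too many degrees of freedom, and the plain-level classes were chosen after seeing the data. The brighter probe set passed in 0 of the 20 fits that left out 1 class liver.

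The receptor, its signalling chain, the IGF system and the sex-biased genes showed no call, where 0.767% of all genes were called. At that share 0 calls are likely in lists this small, so these counts do not show that the lists were unaffected. Of 13 measured genes of the growth hormone receptor and its signalling chain 0 were called, and the median difference was 0.04 log2, against 0.01 over all genes. Ghr, the receptor, differed by 0.06 ± 0.04 log2 and Stat5b by 0.07 ± 0.07. The smallest p-values of that list belonged to Grb14, an adaptor that binds and inhibits the insulin receptor (0.20 ± 0.06, adjusted p = 0.123), and to Jak2 (-0.13 ± 0.08, adjusted p = 0.678). A second, dimmer Ghr probe set had the opposite sign (-0.04).

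Of 16 measured genes listed as induced by growth hormone or STAT5, 3 were called, Onecut1 and Socs2 lower and Cyp8b1 higher, where 0.767% of all genes were called. Onecut1 and Socs2 were markers given with the choice of this comparison. The list's median was -0.01, with 6 members above 0 and 10 below. Igf1, the main endocrine product of the axis, had one of the highest signals (mean 12.95) and differed by 0.05 ± 0.03 log2, within a 95% fold interval of 0.983 to 1.09. Igfals, which carries it in serum, differed by 0.00 ± 0.10. Hnf4a, the hepatocyte master regulator, was 0.25 ± 0.07 higher with an adjusted p of 0.0866. It passed in 1 of the 20 fits that left out 1 class liver, without vehicle replicate 5 (adjusted p = 0.00903). It also passed without the vehicle group (adjusted p = 0.0203), with dim probe sets left out (adjusted p = 0.0468) and on continuous Bcl6 (adjusted p = 0.0284). With classes by plain Bcl6 level, chosen after seeing the data, it passed too (adjusted p = 0.0217). The 2 dimmer Hnf4a probe sets gave 0.08 and 0.12 and were not called. In vehicle livers alone Hnf4a differed by -0.04.

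Of 12 genes of the IGF system 0 were called, against 0.767% of all genes. Igfbp1, an IGF binding protein that insulin represses, gave 0.46 ± 0.31 (adjusted p = 0.706) and Igfbp2 -0.25 ± 0.17 (adjusted p = 0.719). Among sex-biased genes 0 of 14 male-biased and 0 of 14 female-biased genes were called, with medians of 0.01 and -0.03. Of these, 13 male-biased but only 8 female-biased genes had a mean above the lowest array median. Differences of the dimmer ones are limited by signal over background. The male-specific cytochromes Cyp2c11 and Cyp2c13 both differed by 0.00 ± 0.03 log2, and Cyp2c11 had a mean signal of 13.13. The smallest p-values were those of Dhrs7 (0.16 ± 0.06, adjusted p = 0.392) and Slco1a1, an organic anion carrier (0.11 ± 0.05, adjusted p = 0.478), on the male side. On the female side they were those of Sult2a6, a hydroxysteroid sulfotransferase (-0.68 ± 0.22, adjusted p = 0.193), and Cyp2c12 (0.39 ± 0.17, adjusted p = 0.459). Of 8 measured genes related to Bcl6 or to its corepressors 0 were called, against 0.767% of all genes. The closest relative of Bcl6, Bcl6b, differed by 0.22 ± 0.09 (adjusted p = 0.421) and the corepressor gene Ncor1 by 0.09 ± 0.05 (adjusted p = 0.624).

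**Figure D3:**
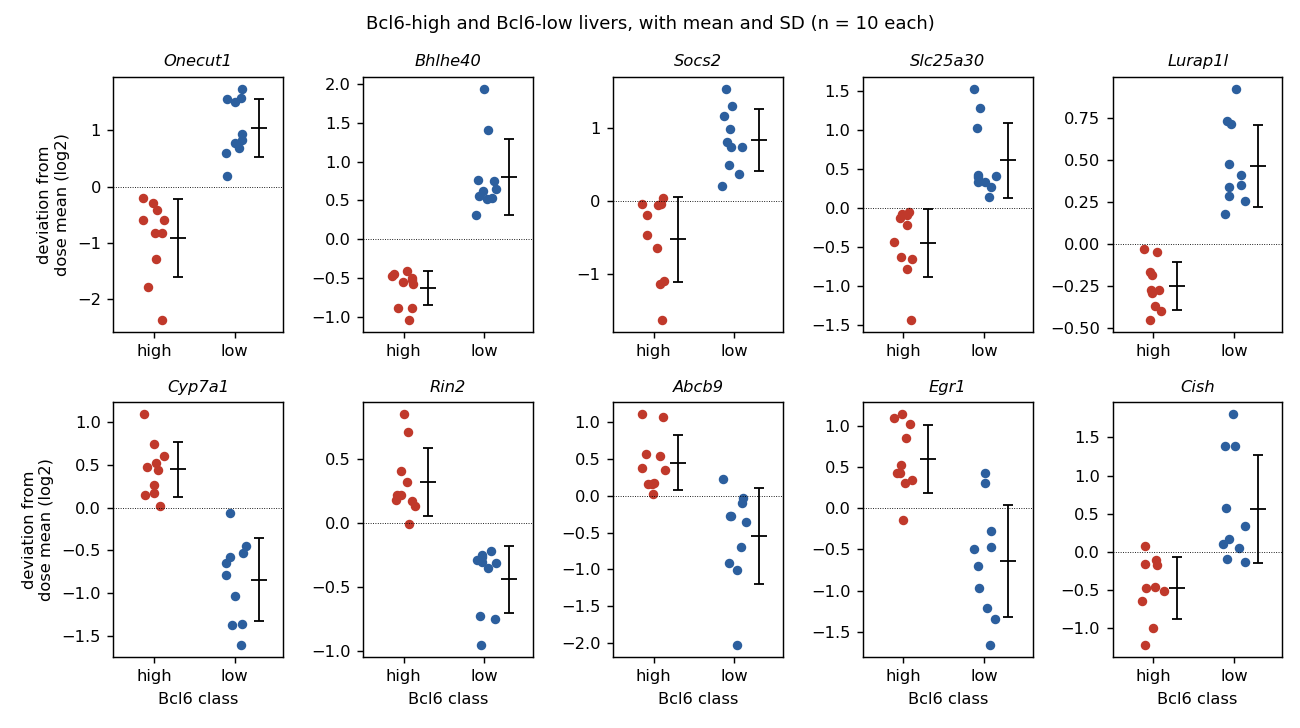
Deviation from the dose group mean (log2, vertical axes) of 10 genes in the 10 Bcl6-high (red, left) and 10 Bcl6-low (blue, right) livers, with the mean and SD beside the points. Onecut1, Bhlhe40, Socs2, Slc25a30, Lurap1l, Cyp7a1 and Rin2 show no overlap, while Abcb9, Egr1 and Cish overlap.

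Outside the axis, Bhlhe40, a helix-loop-helix repressor that feeds back on the circadian clock, had deviations of -1.04, -0.54 and -0.41 log2 in Bcl6-high livers and 0.31, 0.64 and 1.94 in Bcl6-low livers. The classes were wide apart. The difference was -1.45 ± 0.23 log2, or 0.366 times (interval 0.264 to 0.507, limma adjusted p = 8.8e-04).

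Of the 19 measured clock genes Bhlhe40 was the 1 called (0.767% of all genes were), and the list's median was -0.03. The core activator Bmal1 differed by -0.01 ± 0.05 and Per2 by -0.02 ± 0.04, while Nr1d2, a clock repressor, gave 0.37 ± 0.15 (adjusted p = 0.383).

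Of 19 measured glucocorticoid-induced genes 3 were lower, Sgk1, Errfi1 and Klf9, against 0.767% called over all genes, and the median of the list was -0.09. Sgk1, a kinase that controls ion transport, had deviations of -1.32, -0.51 and -0.05 in Bcl6-high livers and -0.08, 0.67 and 2.05 in Bcl6-low livers. The classes overlapped narrowly, and the difference was -1.25 ± 0.28 log2 (0.419 times, interval 0.281 to 0.625, limma adjusted p = 0.0267). Its call was lost without any 1 of 6 livers (vehicle replicate 4, 0.07 mg/kg replicate 5, 0.69 mg/kg replicate 3, 68 mg/kg replicates 2 and 5, 680 mg/kg replicate 5), at adjusted p-values between 0.0512 and 0.0811.

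Errfi1, an inhibitor of the EGF receptor, had deviations of -1.03, -0.44 and 0.15 in Bcl6-high livers and 0.22, 0.38 and 1.08 in Bcl6-low livers. It fell without overlap by 0.90 ± 0.15 log2 (limma adjusted p = 0.00156). Klf9, a Krüppel-like factor with the STAT-type match shown above, had -0.64, -0.22 and 0.00 in Bcl6-high livers and 0.05, 0.32 and 0.62 in Bcl6-low livers. Its difference was -0.54 ± 0.09 (adjusted p = 0.00190), again without overlap. The other 16 genes of the list did not pass.

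Of 19 measured immediate early genes 2 were lower, Jun and Atf3, against the same 0.767%, with a list median of -0.08. Jun, a subunit of AP-1, differed by -0.77 ± 0.15 log2 (adjusted p = 0.00546) on its brightest probe set, and its other 2 probe sets were called too, at -0.66 and -0.61. Atf3, a stress-induced factor, differed by -0.73 ± 0.13 (adjusted p = 0.00355) at a dim mean of 5.02. Egr1, a growth factor-induced zinc finger gene, went the other way without passing: deviations were -0.15, 0.48 and 1.15 in Bcl6-high livers and -1.67, -0.59 and 0.43 in Bcl6-low livers. Its difference was 1.26 ± 0.34 (limma adjusted p = 0.0889), and it passed without 68 mg/kg replicate 3 (adjusted p = 0.0490).

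Slc25a30, a mitochondrial carrier, had deviations of -1.44, -0.33 and -0.05 in Bcl6-high livers and 0.13, 0.40 and 1.53 in Bcl6-low livers. The classes did not overlap, and the difference was -1.08 ± 0.22 log2 (0.474 times, limma adjusted p = 0.0123) on 1 probe set and -1.28 ± 0.24 (adjusted p = 0.00516) on the other. Without 680 mg/kg replicate 5, the Bcl6-high liver with the lowest value, the first became -0.93 (adjusted p = 0.0555).

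Lurap1l had the smallest adjusted p of all, 1.1e-04. Its deviations were -0.45, -0.28 and -0.03 in Bcl6-high livers and 0.17, 0.38 and 0.92 in Bcl6-low livers, and its difference was -0.72 ± 0.09. Rtp3 fell by 0.73 ± 0.11 log2 (adjusted p = 7.0e-04), Pdzrn3 by 0.79 ± 0.14 (adjusted p = 0.00237) and Klf10, a factor induced by TGF-beta, by 0.72 ± 0.13 (adjusted p = 0.00275).

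Further transcription factors were among the calls, named here after their values were seen. Cebpb, a basic leucine zipper factor of the hepatic acute phase and gluconeogenic response, fell by 0.71 ± 0.10 log2 (adjusted p = 2.2e-04). Its deviations of -0.57, -0.40 and -0.08 in Bcl6-high livers did not overlap with those of 0.15, 0.34 and 0.76 in Bcl6-low livers. Hhex, a homeobox factor of liver development, fell by 0.66 ± 0.13 (adjusted p = 0.00546) and Id3, an inhibitor of helix-loop-helix factors, by 0.60 ± 0.11 (adjusted p = 0.00448). Atf4 and Xbp1, factors of the integrated and unfolded protein stress responses, fell by 0.41 ± 0.07 (adjusted p = 0.00251) and 0.36 ± 0.06 (adjusted p = 0.00156). Eif2ak3, which encodes the kinase PERK of the same responses, was higher by 0.36 ± 0.08 (adjusted p = 0.0187), and its call was lost without 0.07 mg/kg replicate 4 (adjusted p = 0.0518) and without replicate 5 (adjusted p = 0.0616).

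Among transcripts higher in Bcl6-high livers Cyp7a1 came first. Its deviations were 0.02, 0.46 and 1.09 log2 in Bcl6-high livers and -1.61, -0.71 and -0.06 in Bcl6-low livers. All 10 Bcl6-high livers lay above their dose mean and all 10 Bcl6-low livers below it. The difference was 1.30 ± 0.19 log2, a 2.45-fold higher signal (interval 1.88 to 3.21, limma adjusted p = 3.6e-04).

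Cyp8b1, the sterol 12-alpha-hydroxylase that sets the ratio of bile acids, was 0.46 ± 0.11 higher (adjusted p = 0.0449). That call was lost without any 1 of 12 livers (vehicle replicates 3, 4 and 6, 0.07 mg/kg replicates 4 and 5, 0.69 mg/kg replicates 2 and 5, 6.88 mg/kg replicate 2, 68 mg/kg replicates 2, 4 and 5, 680 mg/kg replicate 6), at adjusted p-values between 0.0510 and 0.129. Cyp7a1 and Cyp8b1 were the 2 called of 16 measured bile acid genes (0.767% of all genes were called), whose median was 0.04. Nr5a2, a nuclear receptor that drives both, gave 0.17 ± 0.05 (adjusted p = 0.140).

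Abcb9, a peptide transporter of lysosomes and the gene with the other STAT-type match shown, had deviations of 0.02, 0.36 and 1.11 in Bcl6-high livers and -2.03, -0.32 and 0.23 in Bcl6-low livers. Only 1 Bcl6-low liver lay above its dose mean, and the classes overlapped slightly. The difference was 1.01 ± 0.22 log2 (2.02-fold, interval 1.48 to 2.75, limma adjusted p = 0.0169), which became 0.92 (adjusted p = 0.0669) without 680 mg/kg replicate 5. Abcb9 was dim, with a mean of 5.21 log2 over all arrays. In Bcl6-low livers its mean was 4.64, below the lowest array median of 4.71, and its lowest value 3.16.

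Rin2, a guanine exchange factor for the endocytic GTPase Rab5, had deviations of 0.00, 0.22 and 0.85 in Bcl6-high livers and -0.95, -0.31 and -0.22 in Bcl6-low livers. There was no overlap, and the difference was 0.77 ± 0.11 log2 (1.70-fold, adjusted p = 4.1e-04).

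Tbx3, a T-box factor of pericentral hepatocytes, was 0.56 ± 0.11 higher (adjusted p = 0.00748). The 3 other Tbx3 probe sets, all dimmer, gave 0.12, 0.12 and 0.06 and were not called. With Cyp7a1, counted above among the bile acid genes, Tbx3 made up the 2 called of 10 measured pericentral markers (0.767% of all genes were called). The median of these markers was 0.01, with 6 above 0 and 4 below. Efna5, a ligand of Eph receptors, was higher by 0.55 ± 0.10 (adjusted p = 0.00546), the apoptosis inhibitor gene Xiap by 0.53 ± 0.10 (adjusted p = 0.00697) and Fndc3b by 0.47 ± 0.10 (adjusted p = 0.0131). Mideas, which encodes a partner of histone deacetylases, was higher by 0.46 ± 0.08 (adjusted p = 0.00455).

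The calls of Nceh1, Proser2 and Bcl2l11 were lost on leaving out 1 liver in many cases. Nceh1, a cholesteryl ester hydrolase, differed by 0.67 ± 0.15 (adjusted p = 0.0268). It lost its call without any 1 of 10 livers (vehicle replicates 4 and 6, 0.07 mg/kg replicates 4 and 5, 0.69 mg/kg replicates 2 and 5, 68 mg/kg replicates 2, 4 and 5, 680 mg/kg replicate 5). Proser2 differed by 0.52 ± 0.12 (adjusted p = 0.0399). It lost its call without any 1 of 13 (vehicle replicates 2, 3 and 4, 0.07 mg/kg replicates 4 and 5, 0.69 mg/kg replicates 2 and 3, 6.88 mg/kg replicate 2, 68 mg/kg replicates 2, 4 and 5, 680 mg/kg replicates 5 and 6). Bcl2l11, which encodes the apoptosis activator BIM, differed by 0.46 ± 0.11 (adjusted p = 0.0339). It lost its call without any 1 of 9 (vehicle replicate 4, 0.07 mg/kg replicates 4 and 5, 0.69 mg/kg replicate 2, 68 mg/kg replicates 2, 4 and 5, 680 mg/kg replicates 5 and 6). The adjusted p-values without these livers lay between 0.0503 and 0.102 for Nceh1, 0.0541 and 0.116 for Proser2 and 0.0515 and 0.126 for Bcl2l11. One dimmer probe set each of Bcl2l11 and Mideas had the opposite sign.

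With the Actb measure as a covariate, the calls of Nceh1, Tbx3, Efna5, Xiap, Proser2, Fndc3b, Bcl2l11, Cyp8b1, Sgk1, Eif2ak3 and Id3 were lost, at adjusted p-values between 0.0577 and 0.399. The differences of Onecut1, Socs2, Bhlhe40, Cyp7a1, Abcb9 and Rin2 passed in that fit too.

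**Figure D4:**
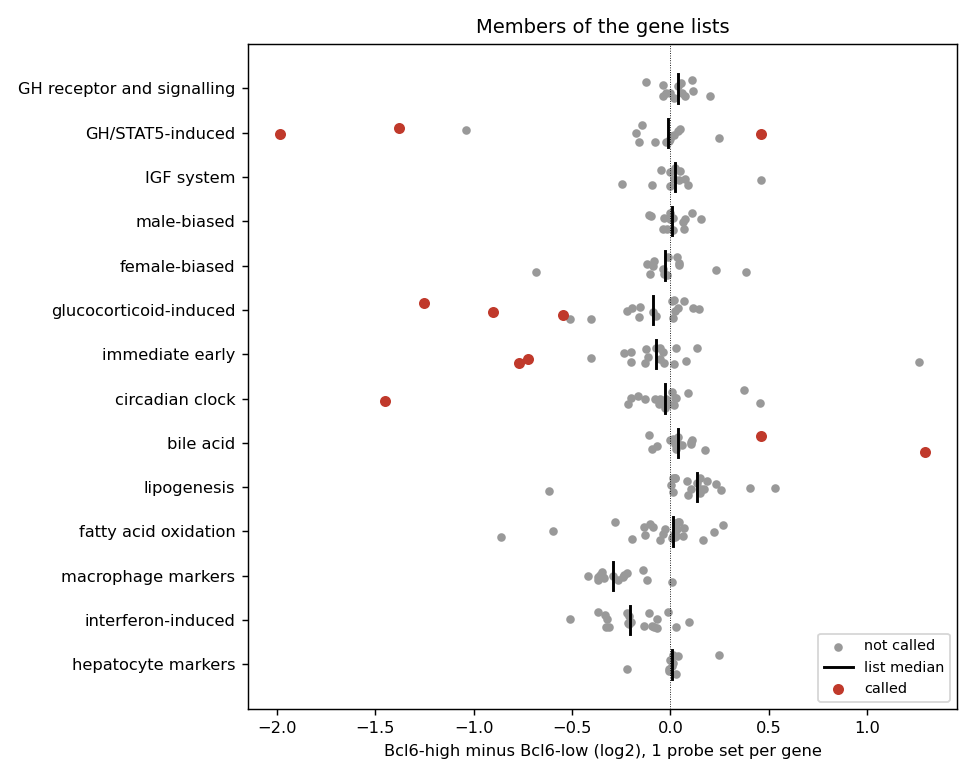
Difference between Bcl6-high and Bcl6-low livers (log2, horizontal axis) of each measured member of 14 gene lists (rows), with called members in red and the list median as a bar. Medians lie near 0 except those of the macrophage (-0.29), interferon (-0.21) and lipogenic (0.13) lists, none of which holds a called member.

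Apart from the bile acid genes, the metabolic lists held no call, where 0.767% of all genes were called. Of 19 lipogenic genes 0 were called, 18 were above 0 and the median was 0.13. The 1 below 0 was Insig1, a sterol sensor that restrains SREBP (-0.62 ± 0.19, adjusted p = 0.182), and Acaca, which makes malonyl-CoA, gave 0.26 ± 0.09 (adjusted p = 0.252). The mean deviation of the lipogenic list lay between -0.34 and 0.31 in Bcl6-high livers and between -0.33 and 0.21 in Bcl6-low livers. On that measure the classes overlapped. Of 25 genes of fatty acid oxidation 0 were called, with a median of 0.01. Pdk4, which slows glucose oxidation, gave -0.60 ± 0.15 (adjusted p = 0.0609) and passed without 6.88 mg/kg replicate 3, 680 mg/kg replicate 1 or 680 mg/kg replicate 5 in turn (adjusted p-values between 0.0336 and 0.0499). Cpt1a, the gatekeeper of mitochondrial import, gave 0.22 ± 0.08 (adjusted p = 0.305). The lists of cholesterol synthesis, gluconeogenesis, xenobiotic metabolism, acute phase and cell cycle genes held 0 calls as well, with medians between -0.06 and 0.05. Of 24 measured cell cycle genes 14 had a mean above the lowest array median.

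The livers were liver by their markers in both classes. The mean log2 signal of 11 hepatocyte markers lay between 12.88 and 12.99 in Bcl6-high livers and between 12.84 and 12.97 in Bcl6-low livers, and 0 were called. Of 15 measured macrophage markers 0 were called, against 0.767% of all genes, but 14 were below 0, with a median of -0.29. The list's mean signal lay between 7.51 and 8.20 in Bcl6-high livers and between 7.52 and 8.52 in Bcl6-low livers, and C1qc and C1qa, complement genes of Kupffer cells, gave -0.36 ± 0.12 (adjusted p = 0.277) and -0.37 ± 0.14 (adjusted p = 0.322). In bulk tissue fewer cells of a type and less RNA per cell cannot be told apart.

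Of 20 interferon-induced genes 0 were called, against 0.767% of all genes, while 18 were below 0 and the median was -0.21. The list's mean deviation lay between -0.57 and 0.53 in Bcl6-high livers and between -0.62 and 0.48 in Bcl6-low livers, with wide overlap. The antiviral gene Oas1a gave -0.51 ± 0.29 (adjusted p = 0.621) and the peptide transporter gene Tap1 -0.22 ± 0.13 (adjusted p = 0.638). Of 14 lymphocyte markers 12 were below 0 (median -0.10) and of 13 endothelial markers 11 (median -0.05), with 0 called in each. Only 5 of the 14 lymphocyte markers had a mean above the lowest array median. The list means of the classes overlapped here too. Of 7 measured cholangiocyte markers 1 was called (0.767% of all genes were), and the list median was -0.04. That 1 was Onecut1, the same call as described above. The part of these cell types in the called differences was not tested.

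The 15 middle livers belong to neither class, so they hold other animals, although they entered the same fit and share the dose means with the classes. A slope on the Bcl6 deviation was fitted in them with dose as a term, which left 8 residual degrees of freedom. Vehicle and 68 mg/kg each held 1 middle liver, which the dose term fits exactly. The slopes therefore rest on the middle livers of 0.07, 0.69, 6.88 and 680 mg/kg. No slope passed the adjusted threshold (0 of 31041, or 0%, smallest adjusted p = 0.415 in limma), while 2382 (7.67%) had an unadjusted p under 0.05. Of the 107 probe sets called lower 105 had a negative slope in the middle livers, 58 of them with an unadjusted p under 0.05. Of the 60 called higher 49 had a positive slope, 5 of them with an unadjusted p under 0.05. These probe sets were measured in the same few livers and some belong to the same gene, so the counts are not of independent results. Over all probe sets 48.3% of slopes were negative, and 63.4% over those brighter than the lowest array median.

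In the middle livers Onecut1 changed by -0.80 ± 0.24 log2 per log2 unit of Bcl6, Bhlhe40 by -0.67 ± 0.18 and Socs2 by -0.54 ± 0.14, and none of these passed after adjustment (adjusted p = 0.601 each in limma). Cish had a slope of -0.57 ± 0.27, Slc25a30 of -0.53 ± 0.17 and Cebpb of -0.26 ± 0.07. Cyp7a1 had a slope of 0.39 ± 0.14 and Abcb9 of 0.39 ± 0.13. Of the called genes described above, Errfi1 (-0.07 ± 0.11), Bcl2l11 (0.05 ± 0.12), Fndc3b (0.07 ± 0.11), Mideas (0.05 ± 0.06) and Eif2ak3 (-0.03 ± 0.08, against its call of 0.36) had slopes within 1 standard error of 0, and so did Egr1 (-0.04 ± 0.37). By the adjusted threshold a relation to Bcl6 was not detectable in these livers for them or for any other probe set.

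**Figure D5:**
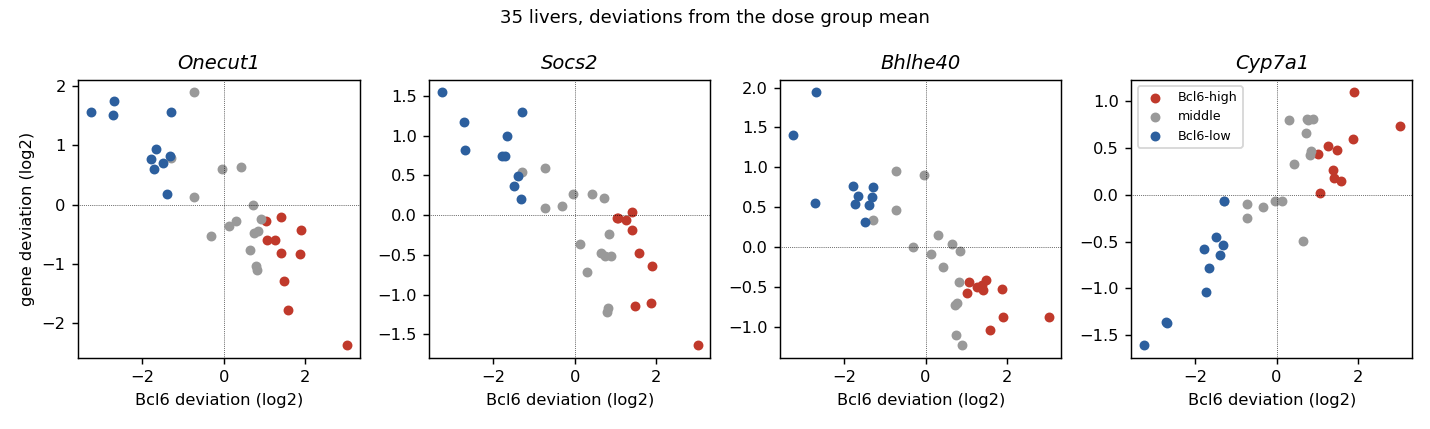
Deviation of Onecut1, Socs2, Bhlhe40 and Cyp7a1 from the dose mean (log2, vertical axes) against that of Bcl6 (log2, horizontal axes) in all 35 livers, coloured by class with the 15 middle livers in grey. The first 3 genes run downward and Cyp7a1 upward with Bcl6.

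For the leading genes the differences were present at every dose and in vehicle livers. The mean of the Bcl6-high livers minus that of the Bcl6-low livers for Onecut1 was -1.81 log2 in vehicle, -1.85 at 0.07, -1.08 at 0.69, -1.51 at 6.88, -3.18 at 68 and -2.87 at 680 mg/kg. For Socs2 it was -1.36 in vehicle, -1.58 at 0.07, -1.17 at 0.69, -0.56 at 6.88, -1.87 at 68 and -1.99 at 680 mg/kg. For Cyp7a1 it was 1.35 in vehicle, 2.05 at 0.07, 1.54 at 0.69, 0.72 at 6.88, 1.03 at 68 and 1.33 at 680 mg/kg. Each value rests on 1 to 3 livers a class, and whether the differences vary with dose was not tested. Onecut1, Socs2, Bhlhe40, Cyp7a1, Abcb9 and Rin2 kept their sign and showed no overlap within any of the 6 groups, as did 138 of all 31041 probe sets (0.445%). These genes were picked for large differences in the same livers, so this adds no support. Jun and Nceh1 kept sign and gap in 5 of 6. Cish kept its sign in 6 of 6, between -2.71 at 68 mg/kg and -0.02 at 680 mg/kg.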

How the data were processed

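Liver RNA of 35 samples (RNA integrity number at least 7.0, 100 ng amplified per the labels' protocols) was measured on Affymetrix arrays. The deposited table holds values for 31099 probe sets that were read as log2 expression, since per the submitters' processing notes they come from RMA and affy (versions: not given in the sources used here). No header states the logarithm's base, and base 2 is what RMA returns. RMA's quantile step would reduce a shift of most transcripts in 1 direction. Dose groups follow the sample titles.

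The 57 control probe sets were left out, and Bcl6, which has 1 probe set, chose the classes, leaving 31041 tested without a filter or further normalisation. Of the probe sets 20826 had 1 gene symbol in the platform annotation, 436 several and 9780 none, and 20758 matched a current RefSeq gene identifier of GRCr8, used for names and promoters. Each of 14216 genes was represented by its brightest probe set.

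The comparison was fitted with limma 3.58.1 in R 4.3.3 on all 35 arrays, with class (high, middle, low) and dose group as terms (27 residual degrees of freedom), and Benjamini-Hochberg adjustment over all probe sets at 0.05. It was tested on simulated data. Intervals are 95% and not adjusted for the number of genes. Dose terms were used because deviations from dose means alone would count too many degrees of freedom. Named genes were the 12 called in each direction with the largest difference among named probe sets brighter than 4.71, the lowest array median, plus called members of gene lists, or the 2 with the smallest p where none was called. Genes outside this rule (among them Cish, Igf1, Igfals, Ghr, Stat5b, Hnf4a, Egr1, Cyp2c11, Cyp2c13, Nr5a2, Bmal1, Per2, Nr1d2, Cebpb, Hhex, Id3, Atf4, Xbp1 and Eif2ak3) were added after their values were seen. The comparison, its markers and the gene lists were chosen with earlier results of these data known.

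Alternatives changed the class size, the dose terms, the normalisation, the filter, the weights, the replicate block, the Actb covariate and the samples included.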

Additional observations from a re-analysis of the deposited data

Results flagged for a closer look

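In 134 groups (Bcl6 in the 6 dose groups, and each named gene in both classes of 10 livers), 11 held 1 sample far from the others by Dixon's criterion, where chance flags about 1 in 20. At 0.07 mg/kg, replicate 5 had a Bcl6 signal of 5.81 log2, against 9.21 to 10.10 in the other livers of that dose. It is the only Bcl6-low liver there, and without it 32 probe sets were called higher and 76 lower.

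The Bcl6-low liver of 68 mg/kg replicate 2 stood apart for 5 genes, as deviations from the dose mean. It had -0.87 for Nceh1 (the other Bcl6-low livers between -0.50 and -0.15), 2.05 for Sgk1 (others -0.08 to 1.02), -0.32 for C1qa (others 0.08 to 0.46), -0.94 for Oas1a (others 0.14 to 0.85) and -0.39 for Tap1 (others 0.06 to 0.51). Without that liver 32 probe sets were called higher and 73 lower.

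The Bcl6-high liver of 680 mg/kg replicate 5, which had the highest Bcl6 deviation, 3.02, stood apart with 0.68 for Bcl2l11 (other Bcl6-high livers -0.01 to 0.35) and -1.44 for Slc25a30 (others -0.78 to -0.05). Single values were -0.45 for Efna5 in the Bcl6-high liver of vehicle replicate 2 (others 0.12 to 0.50), -0.21 for Igf1 in the Bcl6-low liver of 680 mg/kg replicate 1 (others -0.09 to 0.04), and -0.53 for Eif2ak3 in the Bcl6-low liver of 0.07 mg/kg replicate 5 (others -0.30 to -0.06).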

How the results depend on the processing

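None of the 167 calls turned its sign under any alternative run. The counts called higher and lower were 60 and 107 as reported. They moved by over 1.5 times to 113 and 177 for deviations without dose terms, 144 and 271 for Bcl6 as a continuous measure, and 27 and 55 with the Actb covariate. Without the 0.07 mg/kg group they were 21 and 62, without 0.69 mg/kg 19 and 63, and without 68 mg/kg 20 and 36, each with fewer samples. Without 68 mg/kg 53 of the 167 calls were kept, and of the 25 called genes named by rule 11 lost theirs (Abcb9, Nceh1, Proser2, Fndc3b, Bcl2l11, Cyp8b1, Mideas, Sgk1, Slc25a30, Jun, Atf3), as did Atf4, Hhex and Eif2ak3. Of the 25, 9 were lost without 0.69 mg/kg (Abcb9, Nceh1, Efna5, Xiap, Proser2, Fndc3b, Bcl2l11, Cyp8b1, Sgk1) and 8 without 0.07 mg/kg (Abcb9, Nceh1, Tbx3, Proser2, Bcl2l11, Cyp8b1, Sgk1, Slc25a30). Another 5 were lost without 680 mg/kg (Proser2, Cyp8b1, Mideas, Sgk1, Jun), 5 without vehicle (Proser2, Bcl2l11, Cyp8b1, Sgk1, Slc25a30), 4 with the intensity trend (Nceh1, Proser2, Cyp8b1, Sgk1), 3 with classes of 12 (Nceh1, Proser2, Bcl2l11), 2 without 6.88 mg/kg (Bcl2l11, Cyp8b1), 2 with the 20 class arrays alone (Proser2, Cyp8b1) and 1 with classes by plain Bcl6 level (Sgk1). Eif2ak3 was also lost without 0.07, 0.69 or 6.88 mg/kg and with classes by plain level. The count higher was 34 without 680 mg/kg and the count lower 69 without vehicle. With classes by plain Bcl6 level, an alternative chosen after seeing the data, 100 were higher. Leaving out 1 liver at a time gave 32 to 89 higher and 73 to 112 lower. The count higher moved by over 1.5 times without vehicle replicate 4 (37), 0.07 mg/kg replicates 4 (37) and 5 (32), 68 mg/kg replicate 2 (32) and 680 mg/kg replicate 5 (35). The other alternatives (20 class arrays alone, classes of 8 or 12, dim probe sets left out, quantile normalisation, median centring, array weights, intensity trend, 1 probe set per gene) stayed within 1.5 times. Same-numbered samples did not deviate together (median correlation -0.02 over 85 pairs, against 0.00 over 425 others), and the replicate block gave 64 higher and 103 lower. A second Bcl6 probe set could not choose the classes, as the table has 1. Differences of dim probe sets are limited by signal over background: 9 of the 167 calls lay below the lowest array median.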

Other observations

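Among the largest differences that did not pass the test, those of Ugt2b came from few livers. This glucuronosyltransferase gene differed by -2.33 ± 0.87 log2 (SE, limma adjusted p = 0.335) on 1 probe set. Its signal was lowest at 4.34, median 12.42 and highest at 12.80 in Bcl6-high livers, and 12.33, 12.49 and 12.84 in Bcl6-low livers. The medians were thus nearly equal, and single Bcl6-high livers lay far below. A second Ugt2b probe set gave -1.90 ± 0.72 (adjusted p = 0.352), with 2.27, 8.46 and 9.53 in Bcl6-high livers and 8.23, 8.58 and 9.58 in Bcl6-low livers. A probe set annotated to several genes, and so not named, gave -1.98 ± 1.20 (adjusted p = 0.659), and here the medians differed too, at 7.18 in Bcl6-high livers and 9.99 in Bcl6-low livers, within ranges of 2.93 to 10.97 and 3.91 to 10.96.

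Of the 167 called probe sets 36 had either no gene symbol or several, and the largest called difference was among them. That probe set was lower in Bcl6-high livers (difference -2.17 ± 0.30 log2, limma adjusted p = 2.2e-04). Another of the 36 was higher by 1.13 ± 0.15 (adjusted p = 2.2e-04).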
